A study of Mus musculus with 2 samples.

Results

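Immediate early genes are switched on within minutes of a stimulus, without new protein synthesis, and the same genes respond when tissue is cut, warmed and digested into single cells. The 38 genes described here were chosen by name as such a set, and all 38 were found by symbol among the 32285 genes of the mouse matrices. They were sorted by role into 7 groups. The AP-1 group held Fos, Fosb, Fosl2, Jun, Junb, Jund, Atf3 and Maff. The EGR and NR4A group held Egr1, Egr2, Egr3, Nr4a1, Nr4a2 and Nr4a3. Klf2, Klf4, Klf6, Klf10 and Myc formed another group, and Btg2, Gem, Ier2, Ier3, Ier5, Rhob and Sik1 a group of other immediate early genes. Dusp1, Dusp2, Dusp5, Zfp36 and Zfp36l1 encode phosphatases and RNA-decay factors that limit the response. Nfkbia, Nfkbiz, Tnfaip3 and Gadd45b formed the NF-kB feedback group, and Hspa1a, Hspa1b and Dnajb1 the heat shock group.

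Each group was a single 10x library of pooled cells from bowel and mesenteric adipose tissue (MAT) of mice labelled B6/C57 and aged 8-12 weeks, taken at POD 14. One library came from mice with a colotomy, an incision of the colon wall, and the other from mice with a sham operation. Both carried the same pair of hashtag antibodies, which the submitters' reference table pairs with bowel and with MAT, and both tissues of both groups were digested at 37C, bowel in a pair of 30-minute fractions and MAT in one. The labels give neither the number of mice pooled nor their sex. With 1 library per group the comparison has no replicate check: no test was made, and every interval below covers counting error only. A difference between the libraries cannot be told apart from a difference in handling, digestion, pooling or the sex of the mice.

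AP-1 is a dimer of FOS, JUN and ATF family proteins that binds DNA and is induced by MAP kinase signalling, growth factors and mechanical stress. The group called NF-kB feedback here holds genes induced by NF-kB, not all of which restrain it. Nfkbia encodes an inhibitor that holds NF-kB in the cytoplasm and Tnfaip3 a ubiquitin-editing enzyme that dampens signalling upstream. Nfkbiz encodes a nuclear protein of the inhibitor family that acts largely as a coactivator of secondary targets, and Gadd45b a stress sensor that acts mainly on MAP kinase signalling. Hspa1a and Hspa1b encode the inducible cytosolic chaperone made after heat or protein damage through the factor heat shock factor, with Dnajb1 as its co-chaperone. In gut and adipose digests kept warm for enzymatic release, these programmes are known to be induced during dissociation as well as in living tissue, so a level in a digested cell can hold both.

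The promoters of 5 members show the classes of element through which these groups are usually described. They are the 150 bases before the RefSeq gene start (GRCm38.p6), 5′ to 3′ on the gene's strand, with the matched letters in capitals: TGACG, the first letters of a cyclic AMP response element, for Fos, a kappaB motif for Nfkbia and Ier3, and GAANNTTC, a core of heat shock elements, for Hspa1a and Hspa1b.
Fos, chr12:85473740-85473889, plus strand: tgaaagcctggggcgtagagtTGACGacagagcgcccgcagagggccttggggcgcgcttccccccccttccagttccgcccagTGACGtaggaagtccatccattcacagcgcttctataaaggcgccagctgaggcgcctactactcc
Nfkbia, chr12:55492648-55492797, minus strand: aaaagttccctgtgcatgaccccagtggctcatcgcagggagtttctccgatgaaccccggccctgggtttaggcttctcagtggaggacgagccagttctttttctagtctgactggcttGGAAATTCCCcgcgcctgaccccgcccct
Ier3, chr17:35821563-35821712, plus strand: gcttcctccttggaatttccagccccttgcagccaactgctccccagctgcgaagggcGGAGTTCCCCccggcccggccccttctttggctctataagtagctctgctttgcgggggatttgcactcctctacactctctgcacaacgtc
Hspa1a, chr17:34972157-34972306, minus strand: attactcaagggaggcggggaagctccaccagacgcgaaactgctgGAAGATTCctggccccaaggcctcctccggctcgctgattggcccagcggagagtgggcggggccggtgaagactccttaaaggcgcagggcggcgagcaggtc
Hspa1b, chr17:34959239-34959388, minus strand: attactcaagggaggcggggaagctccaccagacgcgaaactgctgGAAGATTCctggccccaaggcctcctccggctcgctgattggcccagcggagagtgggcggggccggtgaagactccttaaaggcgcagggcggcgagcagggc
The Fos window held TGACG 129 and 66 bases before the start. The kappaB match began 29 bases before the start in Nfkbia and 92 bases before it in Ier3, and GAANNTTC began 104 bases before it in both Hspa1 genes. In GENCODE the Ier3 gene starts 29 bases upstream of the RefSeq start, so the last bases printed for Ier3 lie in an annotated transcript. The printed windows of Hspa1a and Hspa1b were identical at 149 of 150 bases. These genes are near-identical copies, and how the counting treated reads that match both was not tested. The value of either alone is uncertain, and reads dropped for matching both would lower their sum.

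Of the 38 members, 30 had an entry in the promoter table, and motifs were searched on both strands of 250 bases before the start. TGACG was present in 16 of the 30 and in 17.8% of all 32851 windows. The full element TGACGTCA, which contains TGACG, was present in 3 of the 30 against 1.55% of windows. A kappaB motif was present in 7 of the 30 (Fos, Fosb, Fosl2, Ier3, Maff, Nfkbia and Tnfaip3) against 3.90%. GAANNTTC was present in 4 (Fosl2, Hspa1a, Hspa1b and Jun) against 6.69%, the AP-1 site TGANTCA in 2 against 6.75%, and the CArG box, the site of serum response factor, in 3 (Dusp5, Egr2 and Zfp36) against 1.47%. These matches describe letters in a window and not binding.

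The libraries differed in ways that touch every value below. A barcode was kept from 500 UMIs over genes and 300 genes upward, if mitochondrial UMIs were below 20%, which left 9246 of 15547 in the colotomy library and 42143 of 44814 in the sham library. Kept colotomy cells had a median of 778.5 UMIs and sham cells 1328, and their median mitochondrial share was 7.22% and 6.21%. The level of Xist was 394 CPM in colotomy and 0.724 CPM in sham cells, and that of summed Y-linked genes 156 and 210 CPM (CPM being the share of the gene UMIs, scaled to 1000000). The libraries thus differed in a sex-linked transcript, and sex cannot be told apart from group. The libraries shared 108 kept barcode sequences, 13 of them in the same cell class in both, and no result was moved beyond its counting interval by leaving them out. Clustering without the members gave 26 clusters, of which 24 were named by marker sets as 17 classes. The 10 classes with at least 100 cells in both libraries were compared.

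Summed over all 38 members, UMIs made up 4984 CPM (95% Poisson interval 4937 to 5031) of kept colotomy cells and 4185 CPM (4170 to 4200) of kept sham cells, a log2 ratio of 0.25. The pooled value mixes classes in different proportions, and median-of-ratios scaling shifted all ratios of the pooled cells by 0.18, which put the pooled ratio at 0.08. In neutrophil-like cells the shift was 0.11, and in the other compared classes it lay within 0.09 of 0. Of the 38 members 11 were at least 1.5-fold higher in pooled colotomy cells, where 32.6% of genes were, and 4 lower, where 17.3% were. The 4544 colotomy barcodes under 500 UMIs held 5805 CPM of member UMIs and were not used further, except for single levels given with the shares below. CPM is not divided by gene length, so levels are set between classes and between libraries, not between genes.

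Among the named classes, neutrophil-like and macrophage-like cells carried the highest levels. Cells of unnamed clusters, 217 in colotomy and 1680 in sham, were not ranked. In the sham library neutrophil-like cells led the 17 classes at 8456 CPM (8047 to 8880), followed by macrophage-like cells at 5950 (5882 to 6019). Vascular endothelial-like cells at 5336 CPM (5232 to 5441) and epithelial-like cells at 5322 (5247 to 5397) came next and did not differ beyond their intervals. Fibroblast-like cells stood at 4784 CPM, B cell-like cells at 4344, T cell-like cells at 4013 and erythroid-like cells at 3459. The lowest were goblet-like cells at 2774 CPM and germinal centre B cell-like cells at 2475.

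In the colotomy library the order at the top changed. Macrophage-like cells reached 10661 CPM (10440 to 10886), above neutrophil-like cells at 8721 (8458 to 8990), and goblet-like cells were lowest of the compared classes at 2275. The macrophage-like ratio was 0.84 (0.81 to 0.88) on the log2 scale, the only compared class past 1.5-fold. The other classes lay between -0.29 (-0.33 to -0.24) in goblet-like cells and 0.33 (0.16 to 0.49) in tuft-like cells. Neutrophil-like cells, at 0.04 (-0.04 to 0.13), gave no direction, and their ratio turned to -0.06 under median-of-ratios scaling, to -0.05 as a mean over cells and to -0.03 without the shared barcodes.

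**Figure D1:**
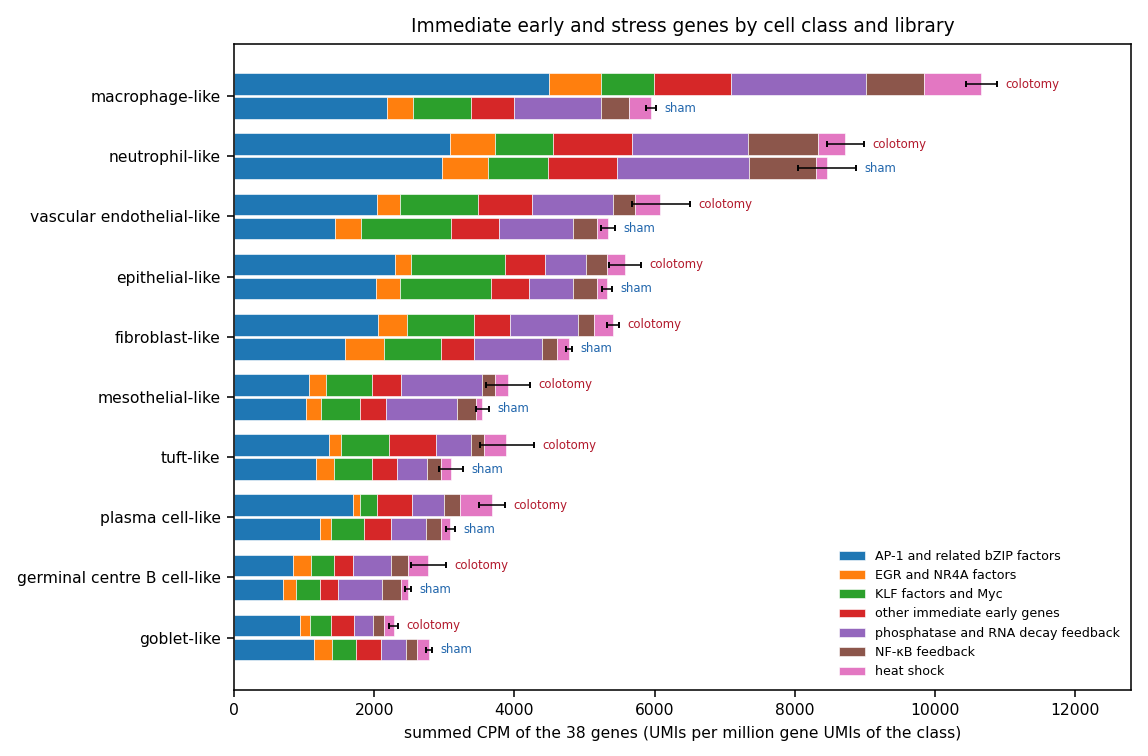
Summed CPM of the 38 members (horizontal axis) by cell class, with 1 stacked bar per library coloured by role group and a 95% Poisson interval at its end. Macrophage-like cells stand at 10661 CPM in colotomy and 5950 CPM in sham, while neutrophil-like bars are of like length.

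Single members followed the same classes. Of the 38, 17 had their highest sham level in neutrophil-like cells and 4 in macrophage-like cells. In the colotomy library, over the 10 compared classes, 17 were highest in macrophage-like cells and 6 in neutrophil-like cells. The share of all genes highest in these classes was not counted, so these counts have no background. Sham neutrophil-like cells, 111 cells with 190046 UMIs, were the smallest named sham class, where a few UMIs make a high CPM. Other members had other homes. Klf4, a regulator of epithelial differentiation, stood highest in epithelial-like cells at 742 CPM in colotomy and 614 in sham. Klf2, a flow-responsive factor of endothelium, stood at 522 and 566 CPM in vascular endothelial-like cells. Zfp36l1, an RNA-decay factor, was highest in colotomy in mesothelial-like cells at 876 CPM, and Dusp2, a MAP kinase phosphatase known from activated lymphocytes, was highest of the sham classes in B cell-like cells at 157 CPM.

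**Figure D2:**
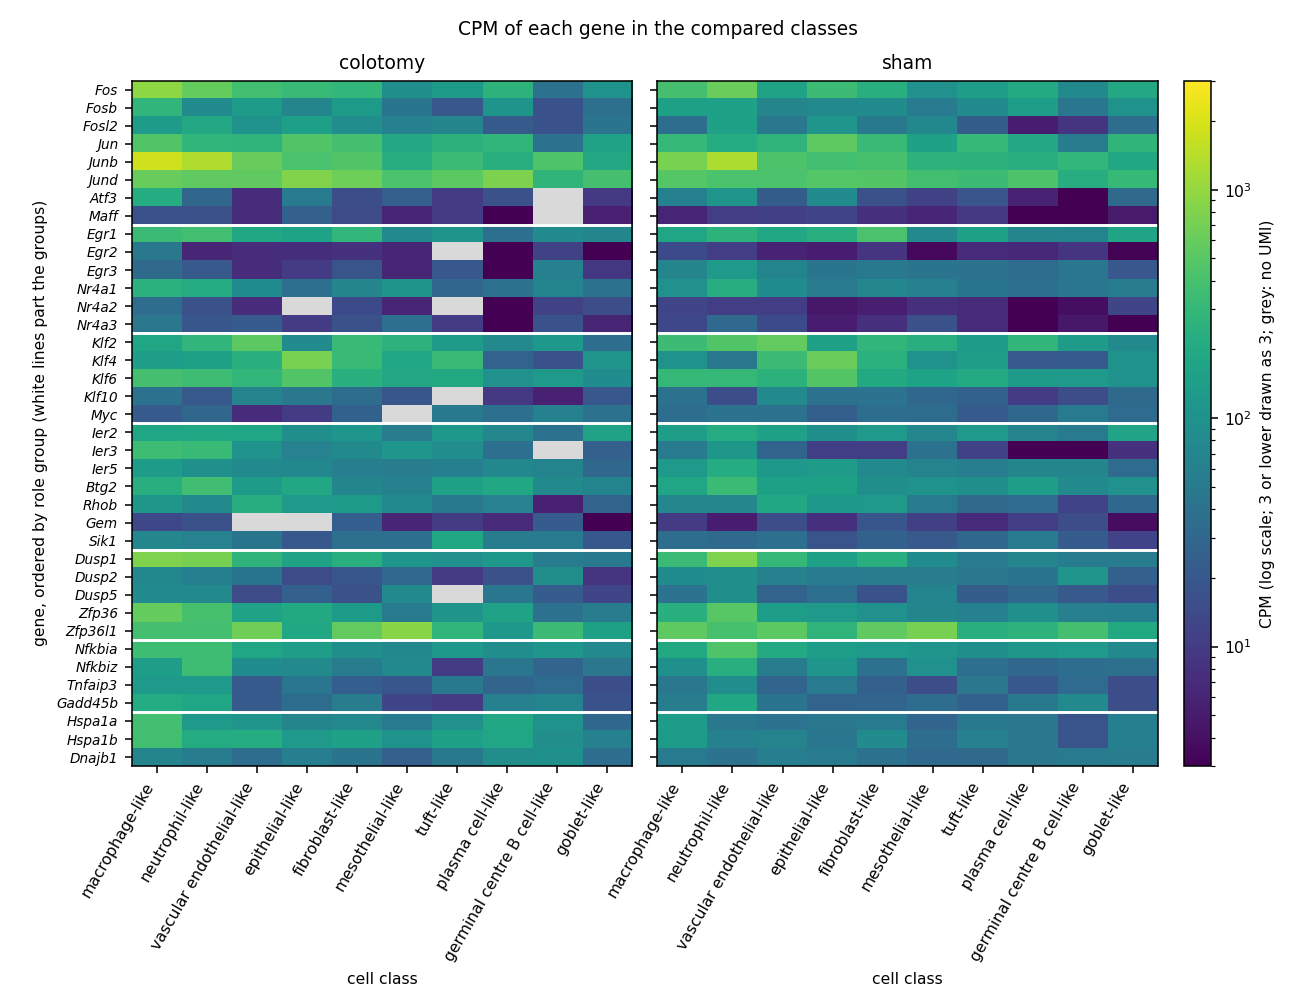
CPM of each of the 38 members (rows, ordered by role group) in each class and library (columns, the 10 compared classes) on a log colour scale, with values of 3 or lower drawn as 3 and grey for no UMI. Macrophage-like and neutrophil-like columns are the lightest, the high end of the scale, for many AP-1, phosphatase and NF-kB feedback rows. In colotomy 17 members were highest in macrophage-like cells, and the share of all genes highest there was not counted.

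In macrophage-like cells (983 colotomy, 2558 sham), 22 of the 38 members were at least 1.5-fold higher in colotomy, where 20.2% of the 12392 genes tested were, and 3 were at least 1.5-fold lower, where 23.6% were. The median log2 ratio of the members was 0.92 and of all genes -0.05. Higher were 6 of 8 in the AP-1 group, 5 of 6 in the EGR and NR4A group, 3 of 7 other immediate early genes, 3 of 5 phosphatase and RNA-decay genes, 3 of 4 NF-kB feedback genes and 2 of 3 heat shock genes. None of the 5 KLF factors and Myc was higher, and 2 of them, Klf2 and Myc, were lower together with Egr3.

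Within the AP-1 group Junb held the most UMIs in macrophage-like cells. Junb stood at 1835 CPM in colotomy and 738 in sham, a log2 ratio of 1.31 (1.23 to 1.40). Fos stood at 936 and 392 CPM, a ratio of 1.25 (1.13 to 1.38). Atf3, induced by many cell stresses, stood at 217 and 63.0 CPM (1.78, 1.51 to 2.05), and the Fos relative Fosl2 at 134 and 36.3 CPM (1.88, 1.53 to 2.23). Jun and Jund had smaller ratios. Jun stood at 457 and 308 CPM (0.57, 0.40 to 0.73). Jund stood at 608 and 480 CPM (0.34, 0.20 to 0.48). The group summed to 4487 CPM in colotomy and 2175 in sham, a ratio of 1.04 (0.99 to 1.10).

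Among the zinc finger and nuclear receptor factors of the EGR and NR4A group, Egr1 held the most UMIs, at 332 CPM in colotomy and 173 in sham (0.94, 0.74 to 1.13). Egr2, a zinc finger factor of the same family, stood at 48.2 and 14.3 CPM (1.76). Nr4a1, an orphan nuclear receptor, stood at 248 and 98.7 CPM (1.33), and its relative Nr4a3 at 47.0 and 13.5 CPM (1.80). Egr3 alone in this group was lower, at 32.6 and 69.0 CPM (-1.08, -1.71 to -0.52).

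Ier3, an immediate early gene linked to cell survival, had the largest ratio among members with at least 50 UMIs in these cells. It stood at 351 CPM in colotomy and 51.0 in sham, 6.88-fold higher. Btg2, an antiproliferative gene, held the most UMIs of the group and stood at 230 and 177 CPM (0.38, 0.14 to 0.60). Klf6 led the KLF group at 388 and 303 CPM (0.36), while Klf2 stood at 172 and 342 CPM (-0.99, -1.24 to -0.74), Myc at 21.7 and 36.7 CPM (-0.76) and Zfp36l1 at 394 and 545 CPM (-0.47). Dusp2 lay within 1.5-fold at 76.0 and 85.3 CPM (-0.17).

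Most feedback genes were higher as well. Dusp1, the phosphatase that switches off stress MAP kinases, stood at 793 CPM in colotomy and 330 in sham (1.27, 1.13 to 1.40). Zfp36, which promotes decay of cytokine mRNAs, stood at 582 and 238 CPM (1.29, 1.14 to 1.45). In the NF-kB feedback group, Gadd45b stood at 210 and 55.1 CPM (1.93, 1.65 to 2.21), Tnfaip3 at 123 and 47.9 CPM (1.36) and Nfkbia, with the most UMIs of that group, at 353 and 201 CPM (0.81, 0.62 to 1.00). Nfkbiz was within 1.5-fold, at 140 and 96.5 CPM (0.54).

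Both inducible chaperone genes were higher in macrophage-like cells. Hspa1a stood at 379 CPM in colotomy and 136 in sham (1.47, 1.28 to 1.67), and Hspa1b at 367 and 129 CPM (1.51, 1.31 to 1.71). Their co-chaperone gene Dnajb1 was within 1.5-fold, at 69.9 and 51.8 CPM (0.43). The group summed to 815 and 317 CPM, a ratio of 1.36 (1.23 to 1.49), the largest of the 7 groups in this class, and above the AP-1 interval and the NF-kB feedback ratio of 1.04 (0.92 to 1.17).

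**Figure D3:**
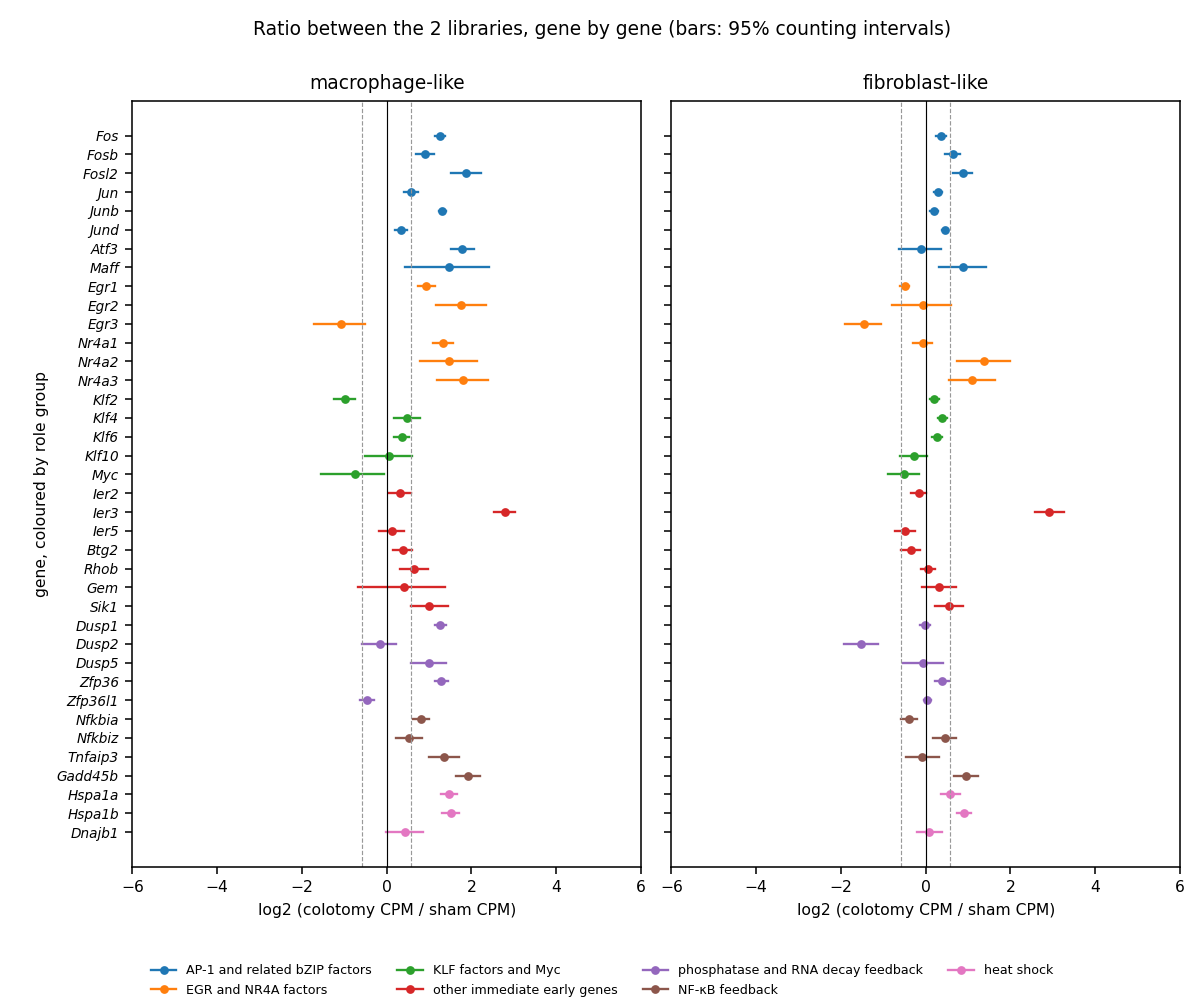
Log2 ratio of colotomy to sham CPM (horizontal axis) for each member in macrophage-like and fibroblast-like cells, with bars for 95% counting intervals and dashed lines at 1.5-fold. In macrophage-like cells 22 members lie past the upper line, in fibroblast-like cells 9 do, and Ier3 is farthest right in both at 2.78 and 2.91.

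The macrophage-like ratio was present at each depth and mitochondrial share examined. Summed over the members it was 0.71 among cells of 500 to under 1000 UMIs, 0.58 from 1000 to under 2000 and 1.03 from 2000 up, and it was 0.94, 0.81 and 0.70 in cells under 5%, 5% to 10% and 10% to 20% mitochondrial. The heat shock ratio moved more with depth, at 1.28, 0.74 and 1.64. Among the minority of cells with a hashtag call the summed ratio was 0.52 for hashtag 1 (109 and 145 cells) and 0.70 for hashtag 2 (159 and 279 cells), and among cells with a Y-linked and no Xist UMI 0.81.

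The class held its clusters in different proportions in the libraries. The cluster led by Mmp12, a macrophage elastase, and Spp1, the osteopontin gene, held 349 colotomy and 87 sham cells, and the cluster led by Folr2, a gene of resident macrophages, held 634 and 2471. The summed ratio was 0.74 in the first (9919 and 5944 CPM) and 0.91 in the second (11216 and 5950 CPM). Heat shock genes stood at 1.21 and 1.70 and NF-kB feedback genes at 0.50 and 1.22.

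Marker lists of other cell types also differed within macrophage-like cells. The 6 neutrophil markers summed to 850 CPM in colotomy and 69.2 in sham, with 5 higher and Ly6g at 0 in colotomy. The 8 fibroblast markers summed to 2495 and 251 CPM, with all 8 higher, and the 7 monocyte markers to 8038 and 3212 CPM, with 4 higher. The class's own 8 markers were close, at 4642 and 4359 CPM. The part of these cells or of their free RNA in the members' ratios was not tested.

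Fibroblast-like cells (3648 colotomy, 5615 sham) showed smaller differences. The members summed to 5408 CPM (5325 to 5492) in colotomy and 4784 (4741 to 4828) in sham, a ratio of 0.18 (0.15 to 0.20). At least 1.5-fold higher were 9 of the 38, where 17.0% of the 14588 genes tested were, and 2 were lower, where 19.3% were. The median ratio was 0.20 for the members and -0.03 for all genes. Of the members, 27 lay within 1.5-fold.

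Ier3 again had the largest ratio, at 81.5 CPM (71.6 to 92.4) in colotomy and 10.8 (8.87 to 13.1) in sham, 7.52-fold higher. The NR4A receptor genes Nr4a2, at 14.0 and 5.42 CPM (1.37), and Nr4a3, at 16.6 and 7.77 CPM (1.10), followed at low levels. Gadd45b stood at 54.9 and 28.2 CPM (0.96), Hspa1b at 155 and 82.9 CPM (0.90, 0.74 to 1.07), and Fosl2 at 89.8 and 49.0 CPM (0.88). The remaining genes called higher were the small Maf factor Maff (0.88), Fosb (0.64) and Hspa1a at 76.5 and 51.0 CPM (0.58, 0.35 to 0.81).

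The most abundant members of each group were nearer to equal. Jund, with the most UMIs of the AP-1 group, stood at 655 and 476 CPM (0.46, 0.38 to 0.54), Fos at 291 and 227 CPM (0.35, 0.24 to 0.47) and Junb at 458 and 399 CPM (0.20). Klf2 stood at 325 and 282 CPM (0.20), the small GTPase gene Rhob at 131 and 125 CPM (0.06) and Zfp36l1 at 574 and 558 CPM (0.04). Several were lower in colotomy. Egr1 stood at 291 and 411 CPM (-0.50, -0.61 to -0.39), Nfkbia at 93.5 and 123 CPM (-0.40, -0.59 to -0.21), Ier5 at 56.9 and 79.7 CPM (-0.49) and Myc at 25.6 and 36.5 CPM (-0.51).

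By group, heat shock genes summed to 275 CPM in colotomy and 175 in sham (0.65, 0.53 to 0.77) in fibroblast-like cells and AP-1 genes to 2047 and 1581 CPM (0.37, 0.33 to 0.42). NF-kB feedback genes summed to 229 and 218 CPM (0.07, -0.06 to 0.19), with Gadd45b higher and Nfkbia lower. EGR and NR4A genes summed to 418 and 556 CPM, lower in colotomy (-0.41, -0.50 to -0.32). The intervals of these 4 groups did not overlap one another.

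Egr3 and Dusp2 were the members called lower in fibroblast-like cells. Egr3 stood at 18.0 CPM in colotomy and 49.5 in sham (-1.46, -1.90 to -1.05), and Dusp2 at 19.3 and 55.2 CPM (-1.52, -1.93 to -1.12). Both were higher in other sham classes. In sham B cell-like cells Egr3 stood at 152 CPM and Dusp2 at 157 CPM, and in sham erythroid-like cells at 100 and 110 CPM. The 7 B cell markers, summed within fibroblast-like cells, had a colotomy to sham ratio of -2.07, with all 7 lower, and the 6 erythroid markers one of -1.84, with all 6 lower. Whether free RNA of those cells carried the Egr3 and Dusp2 UMIs was not tested.

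The share of cells with a UMI was taken after thinning each cell to 500 UMIs and set beside that in sham erythroid-like cells (1681 cells, median 1250 UMIs). That erythroid-like cells lack these transcripts was assumed and not tested. Their members' sum lay above that of goblet-like cells, and their Junb UMIs were not spread evenly, with Junb in 39.3% (29.1% to 50.3%) of those with a Fos UMI and in 17.8% (16.0% to 19.8%) of the others. The colotomy library held 19 erythroid-like cells, too few for such a share, so its cells are set beside cells of the other library. In the colotomy barcodes under 500 UMIs, Fos stood at 341 CPM, Hspa1b at 178, Ier3 at 116 and Egr1 at 222. The first 3 were above their CPM in colotomy fibroblast-like cells, and Egr1 was below it. How far those barcodes held free RNA or cells was not tested. Ier3 was seen in 3.56% (2.99% to 4.22%, exact binomial) of colotomy fibroblast-like cells, median 717.5 UMIs, and in 0.463% (0.303% to 0.678%) of sham ones, median 1528 UMIs, against 0.238% (0.0649% to 0.608%) of erythroid-like cells. Unthinned, the Ier3 shares were 5.73%, 1.69% and 0.595%. Ier3 was thus rare per cell in both libraries, and the interval of its sham share overlapped that of erythroid-like cells. Fos was seen in 10.8% and 9.01%, above the erythroid-like 5.29% (unthinned 15.6%, 24.1% and 12.3%). Hspa1b was seen in 6.20% and 4.43%, above 1.84% (unthinned 10.6%, 11.2% and 4.40%). Egr1 was seen in 11.4% of colotomy and 16.0% of sham fibroblast-like cells, above 3.93% (unthinned 15.8%, 33.1% and 9.10%).

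Other shares were at or below those of erythroid-like cells. Egr3 was seen in 0.85% of colotomy and 2.49% of sham fibroblast-like cells against 4.22% of erythroid-like cells. Dusp2 was seen in 0.987% and 2.67% against 5.18%. Junb, at 17.7% and 16.8% against 19.0%, and Nfkbia, at 4.11% and 5.93% against 5.59%, could also not be separated from the erythroid-like share by detection at this depth. Unthinned, the colotomy, sham and erythroid-like shares were 1.37%, 7.53% and 12.3% for Egr3 and 1.48%, 8.53% and 13.2% for Dusp2. They were 25.3%, 39.5% and 40.1% for Junb and 7.07%, 18.0% and 14.0% for Nfkbia. In macrophage-like cells the thinned shares of Egr3, 1.73% and 3.36% (unthinned 2.34% and 10.6%), and of Dusp2, 3.46% and 3.99% (unthinned 5.09% and 13.5%), also lay below those of erythroid-like cells.

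In macrophage-like cells of both libraries, at the same thinned depth, the shares of 5 other members stood above those of sham erythroid-like cells. Ier3 was seen in 13.4% of colotomy and 2.66% of sham cells, or 19.9% and 6.96% unthinned at medians of 695 and 1638.5 UMIs. Fos was seen in 32.2% and 16.9%, Junb in 48.0% and 29.1%, Nfkbia in 16.0% and 9.46% and Hspa1b in 13.7% and 6.29%. Unthinned, at unequal depth, these were 40.2% and 40.0% for Fos, 58.9% and 59.97% for Junb, 21.9% and 27.8% for Nfkbia and 20.04% and 15.5% for Hspa1b.

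Fibroblast-like cells also fell into clusters in different proportions in the libraries, and the groups did not behave alike across them. The cluster led by Ptn held 1990 colotomy and 237 sham cells, the Inmt cluster 621 and 2467 and the cluster led by Efhd1 and Pi16, the latter a gene of adventitial fibroblasts, 994 and 2497, while the Adamdec1 cluster, with 43 and 414, was not compared. The AP-1 ratio was 0.63, 0.48 and 0.29 in these clusters. The heat shock ratio was 0.98 and 0.99 in the Ptn and Inmt clusters and 0.14 in the Efhd1 cluster, where Hspa1a (-0.17) and Fosb (-0.40) were lower in colotomy. NF-kB feedback genes stood at 0.60, -0.13 and -0.16, and EGR and NR4A genes at 0.60, -0.28 and -0.94, with opposite directions between clusters in both groups. In the Ptn cluster 18 members were called higher, where 18.2% of genes were, and 2 lower, where 17.2% were.

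Within fibroblast-like cells the 6 neutrophil markers summed to 182 CPM in colotomy and 13.7 in sham, with 5 higher and Ly6g at 0 in colotomy. The 8 macrophage markers summed to 463 and 230 CPM, with 7 higher, and the 6 smooth muscle markers were higher by 2.31 on the log2 scale, with all 6 higher. Ier3 stood at 311 CPM in colotomy neutrophil-like cells and 351 CPM in macrophage-like cells. It stood at 25.1 CPM in colotomy goblet-like cells, 37.8 CPM (16 UMIs) in plasma cell-like cells and 88.8 CPM (9 UMIs) in tuft-like cells, each above its sham level. In colotomy germinal centre B cell-like cells, 197 cells of the same library, no Ier3 UMI was found, and the 95% upper limit is 20.8 CPM, against 2.53 CPM in sham ones. The part of free Ier3 RNA in these levels was not tested.

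Goblet-like cells (2014 colotomy, 1697 sham), named for the mucus-secreting cells of the gut epithelium, went the other way. The class joined a cluster led by Spink4 and Muc2, with 2002 colotomy and 1472 sham cells, and one led by Zg16, with 12 and 225. The first also passed 5 of 9 epithelial markers. Ratios are given for the class and not for its clusters. Of the 38 members 3 were at least 1.5-fold higher in colotomy, where 15.0% of the 13398 genes tested were, and 12 were lower, where 13.7% were. The median ratio was -0.19 for the members and 0.07 for all genes. Lower were 4 of 8 AP-1 genes and 3 of 6 EGR and NR4A genes, and none of the 4 NF-kB feedback genes was called in either direction.

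Atf3 stood at 9.71 CPM in colotomy goblet-like cells and 32.9 in sham ones (-1.76, -2.44 to -1.14), Fosb at 38.8 and 100 CPM (-1.37), and Fos at 104 and 195 CPM (-0.91, -1.11 to -0.71). Egr1 stood at 70.8 and 169 CPM (-1.25, -1.49 to -1.02). Dusp2 (-1.54) and Klf2 (-1.11) were among the 5 smallest ratios as well. Against these, Ier3 stood at 25.1 and 8.10 CPM (1.63, 1.06 to 2.21), Nr4a3 was called higher at 6.07 and 2.24 CPM (1.44, 28 UMIs in all), and the kinase gene Sik1 stood at 20.2 and 11.9 CPM (0.77). Jund (0.35), Fosl2 (0.27) and Nr4a2 (0.27) came next and lay within 1.5-fold. The heat shock copies split, with Hspa1a at 30.7 and 59.1 CPM (-0.94) and Hspa1b at 62.3 and 58.4 CPM (0.09); assignment of reads between the copies was not tested. The median depth of these cells was 985 UMIs in colotomy and 2817 in sham, and within the 3 depth bins used above the summed ratio was -0.47, -0.61 and -0.54.

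Neutrophil-like cells (478 colotomy, 111 sham) had high levels in both libraries. Of 36 members tested 7 were higher, where 32.2% of 8021 genes were, and 7 lower, where 20.4% were. Junb stood at 1333 CPM in colotomy and 1273 in sham (0.07), Fos at 585 and 621 CPM (-0.09) and Dusp1 at 733 and 784 CPM (-0.10). The AP-1 and NF-kB feedback sums had ratios of 0.05 and 0.06, or -0.06 and -0.05 under median-of-ratios scaling and -0.07 and -0.21 as means over cells, while heat shock genes summed to 393 and 153 CPM (1.36, 0.79 to 1.98), with Hspa1b at 213 and 63.1 CPM (1.75) and Hspa1a at 125 and 47.4 CPM (1.40). Ier3 stood at 311 and 116 CPM (1.43), Klf4 at 153 and 47.4 CPM (1.69) and Nfkbiz at 349 and 237 CPM (0.56). At the other end were Ier5 at 96.1 and 216 CPM (-1.17), Fosb (-0.92), Klf2 (-0.69), Nfkbia at 351 and 447 CPM (-0.35) and Zfp36 (-0.31). Markers of other cell types differed here as well. The 8 fibroblast markers summed to 14513 CPM in colotomy and 2762 in sham, with all 8 higher, and the 7 monocyte markers to 3483 and 1468 CPM, with 6 higher. The 6 erythroid markers summed to 779 and 10940 CPM, with 5 lower, and the class's own 6 markers to 44974 and 36428 CPM. Their part in these ratios was not tested.

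The remaining 6 compared classes had smaller colotomy numbers and wider intervals. In epithelial-like cells 6 members were higher, where 25.3% of genes were, and 7 lower, where 21.2% were. Ier3 led at 64.7 and 10.8 CPM (2.59), then Hspa1b at 127 and 45.6 CPM (1.48), Maff (0.97), Jund at 801 and 480 CPM (0.74) and Zfp36 (0.65), and the smallest ratios were those of Egr3 (-2.13), Dusp2 (-1.78), Myc (-1.27), Klf2 (-0.88) and Ier5 (-0.81). In vascular endothelial-like cells 8 were higher, where 24.7% were, and 8 lower, where 19.6% were. There Ier3 stood at 101 and 28.0 CPM (1.85), Hspa1b at 217 and 66.7 CPM (1.70), Hspa1a at 109 and 41.3 CPM (1.40), Fos at 369 and 162 CPM (1.19) and Fosl2 at 101 and 47.1 CPM (1.11). Egr3 (-3.22), Myc (-2.45), Gadd45b (-0.98), Dusp5 (-0.90) and Dnajb1 (-0.66) were lowest, each on 5 or fewer colotomy UMIs. In mesothelial-like cells 9 of 37 were higher, where 22.0% were, and 7 lower, where 23.3% were. Hspa1b at 101 and 35.3 CPM (1.51) and Ier3 at 113 and 40.9 CPM (1.47) led, ahead of Nr4a1 (0.81), Klf4 (0.81) and Rhob (0.62). Egr3 (-2.74), Gadd45b (-1.49), Dusp2 (-0.81) and Btg2 (-0.72) were lowest among members with a colotomy UMI. Myc had no UMI there in colotomy, with a 95% upper limit of 23.3 CPM, and 34.6 CPM (25.7 to 45.7) in sham. It was counted as lower with 3 counts in place of 0.

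Plasma cell-like cells had 10 of 35 members higher, where 18.9% of genes were, and 6 lower, where 22.8% were. Their 3 heat shock genes were all called higher, with Hspa1b at 180 and 45.9 CPM (1.97), Hspa1a at 182 and 47.0 CPM (1.95) and Dnajb1 at 92.2 and 47.0 CPM (0.97), followed by Rhob (0.91) and Jund (0.81). Egr3 (-3.87, 1 colotomy UMI), Klf2 (-1.87), Dusp2 (-1.39), Zfp36l1 (-1.13) and Egr1 (-0.87) were lowest. Germinal centre B cell-like cells had 9 of 37 higher, where 23.9% were, and 5 lower, where 14.1% were. Hspa1a at 102 and 18.1 CPM (2.49), Hspa1b at 90.4 and 17.9 CPM (2.33) and Dnajb1 at 96.1 and 51.8 CPM (0.89) were again all higher, with Sik1 (1.18) and Junb at 452 and 288 CPM (0.65). Klf10 (-1.45), Fosb (-1.42), Rhob (-1.07), Fos at 39.6 and 79.1 CPM and Zfp36 (-0.64) were lowest, each on 7 or fewer colotomy UMIs. Tuft-like cells, chemosensory cells of the epithelium, had 13 of 32 higher, where 24.2% were, and 5 lower, where 25.2% were. Among members with at least 50 UMIs, Klf4 (1.13), Btg2 (0.76), Jund (0.63), Junb (0.41) and Nfkbia (0.34) were highest and Egr1 (-0.50), Jun (-0.24), Fos (-0.15), Ier2 (-0.09) and Klf2 (-0.08) lowest.

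Across the 10 classes the AP-1, NF-kB feedback and heat shock sums had different ranges, and the difference between groups was not tested. The heat shock sum was at least 1.5-fold higher in colotomy in 9 classes, with every one of those intervals above 0. In goblet-like cells the sum was lower at -0.40, with Hspa1a at -0.94 and Hspa1b at 0.09. The sum ranged up to 1.71 in germinal centre B cell-like cells, with a median of 1.11. Its sign in each class was the same under median-of-ratios scaling, non-mitochondrial CPM and the mean over cells. Median-of-ratios scaling shifted no compared class by more than 0.11, too little to turn any of these sums. The sum turned to lower in a hashtag subset of germinal centre B cell-like and of vascular endothelial-like cells, and in Y-linked epithelial-like cells. The heat shock sum rested largely on the near-identical pair Hspa1a and Hspa1b. The third member, Dnajb1, was called higher in 3 classes and lower in 1, with a median of 0.25. The AP-1 sum had its interval above 0 in 6 classes and below 0 in 1, from -0.27 to 1.04 with a median of 0.24, and its sign turned to lower in neutrophil-like cells under median-of-ratios scaling and in neutrophil-like and mesothelial-like cells as a mean over cells. The NF-kB feedback sum had its interval above 0 in macrophage-like cells only, from -0.46 in mesothelial-like cells to 1.04, with a median of -0.01. It was above 0 in 5 classes, or in 3 under median-of-ratios scaling and 4 as a mean over cells. EGR and NR4A sums were below 0 in 7 of the 10 classes under each scaling, 4 of them with the interval below 0.

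**Figure D4:**
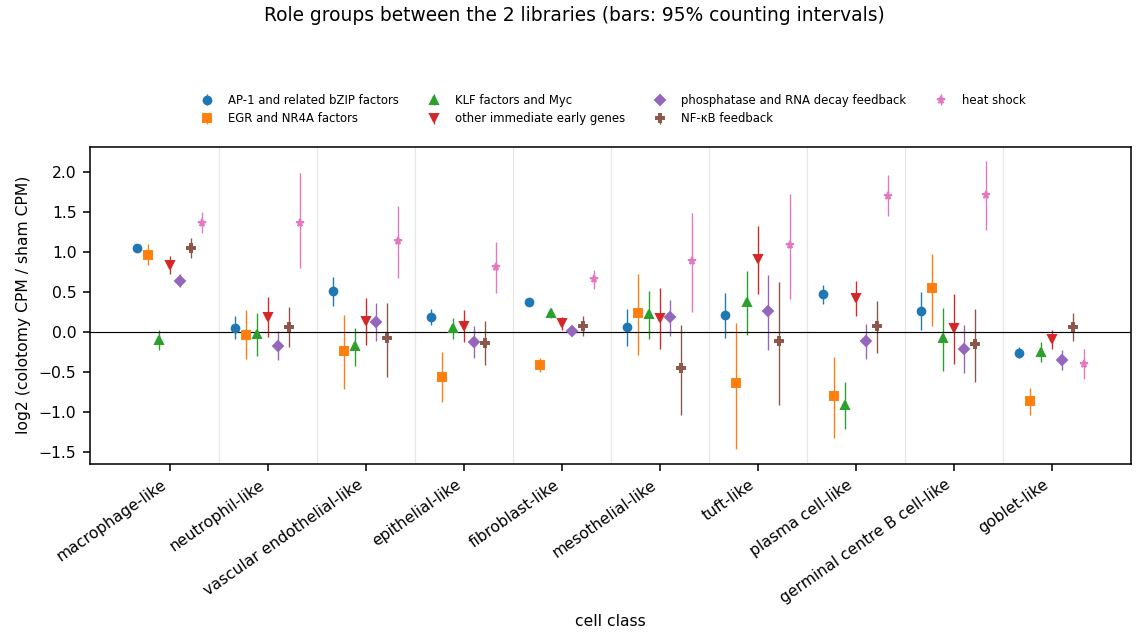
Log2 ratio of colotomy to sham summed CPM for 7 role groups in 10 compared classes, with 95% counting intervals. Heat shock values lie above 0 in 9 classes. NF-kB feedback values run from -0.46 in mesothelial-like to 1.04 in macrophage-like cells, the only class with its interval above 0. EGR and NR4A values run from -0.87 in goblet-like to 0.96 in macrophage-like cells.

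Levels across classes gave a related description. Over the 10 classes of the colotomy library, AP-1 and NF-kB feedback sums correlated with Pearson r 0.84, AP-1 and heat shock with 0.77, and NF-kB feedback and heat shock with 0.72. Over the 17 sham classes the values were 0.68, 0.62 and 0.12. By rank (Spearman) the same pairs had 0.75, 0.55 and 0.60 in colotomy and 0.43, 0.71 and 0.007 in sham. The libraries' values rest on different sets of classes. The classes share a library and its free RNA, and with so few points these are descriptions only. Heat shock genes were highest in macrophage-like cells in sham as well (317 CPM), whereas NF-kB feedback genes were highest in neutrophil-like cells (963 CPM), which stood at 153 CPM for heat shock.

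Single members differed in how widely their direction was shared. Ier3 was at least 1.5-fold higher in colotomy in 9 of 10 classes, from 1.43 in neutrophil-like to 4.08 in plasma cell-like cells, where the counts were 16 and 6 UMIs. Hspa1b was higher in 9, Hspa1a in 8, Nr4a3 in 7 of 8 tested and Fosl2 and Sik1 in 6. Egr3 was lower in 9 of 10 and Dusp2 in 7 of 10. Of the 6175 genes tested in every class 1.85% were higher in 9 or more and 4.49% lower in 8 or more. Among the 32 members so tested, 2 were higher in 9 or more and 1 lower in 8 or more. For members higher in 6, 7 or 8 classes, or lower in 7, no share over all genes was taken. Whether those counts are unusual was not tested.

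Genes of the same pathways outside the 38 were read from 4 lists, each count to be read beside the 20.2% of genes higher and 23.6% lower in macrophage-like cells and the 17.0% and 19.3% in fibroblast-like cells. In macrophage-like cells 14 of 23 other immediate early genes tested were higher and 2 lower, with a median of 0.74 against -0.05 for all genes. Cebpb, a myeloid and acute-phase factor, stood at 1127 and 184 CPM (2.61) and the kinase gene Sgk1 at 211 and 35.9 CPM (2.55). The matricellular gene Ccn1 stood at 30.1 and 2.65 CPM (3.51, 25 and 13 UMIs), against 99.8 CPM in colotomy fibroblast-like cells. Dusp4 (-2.00), Per1 (-0.92) and Dusp10 (-0.36) were lowest. In fibroblast-like cells 6 of 24 were higher and 3 lower, with a median of 0.11. There Cebpb stood at 267 and 73.1 CPM (1.87), the connective tissue factor gene Ccn2 at 85.5 and 32.3 CPM (1.40) and Tob1 had a ratio of 1.11, while Per1 (-1.06), Errfi1 (-1.05) and Dusp4 (-0.92) were lowest. Cebpb was also higher in plasma cell-like (2.64), tuft-like (2.63), goblet-like (2.08), epithelial-like (1.98), mesothelial-like (1.81) and neutrophil-like cells (0.79). The part of free RNA in the levels of Cebpb and Ccn1 was not tested.

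The list of NF-kB subunits and targets had cytokine genes at its top in both classes. In macrophage-like cells 6 of 19 were higher, where 20.2% of genes were, and 2 lower, where 23.6% were, with a median of -0.21. The cytokine genes Il1b, at 581 and 50.0 CPM (3.54), and Cxcl2, at 720 and 72.4 CPM (3.31), and Cxcl1 (2.83) were highest, while Nfkbib (-0.67), Traf1 (-0.66) and Nfkb2 (-0.45) were lowest. In fibroblast-like cells 6 of 20 were higher, where 17.0% were, and 6 lower, where 19.3% were, with a median of -0.20. Cxcl2 stood at 57.2 and 4.09 CPM (3.81), Il1b, a product of myeloid cells, at 56.9 and 5.21 CPM (3.45) and Il6 at 4.66 and 0.613 CPM (2.92), while the subunit gene Rel (-1.57), Birc3 (-1.25) and Nfkbid (-1.25) were lowest. Il1b and Cxcl2 were also higher in tuft-like, plasma cell-like, goblet-like, mesothelial-like and epithelial-like cells. Il1b stood at 207 and 2.33 CPM (1 sham UMI) in tuft-like, 85.1 and 2.24 CPM in plasma cell-like and 26.3 and 1.90 CPM in goblet-like cells. In neutrophil-like cells both lay within 1.5-fold, Il1b at 1417 and 1089 CPM. The part of free RNA in these levels was not tested.

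Most other heat shock genes lay within 1.5-fold. In macrophage-like cells 3 of 14 were higher and 1 lower, with a median of 0.14. The small chaperone gene Hspb1 led at 21.7 and 3.88 CPM (2.49, 18 and 19 UMIs), ahead of Bag3 (0.98) and Hsph1 (0.75). Hsf1 (-1.09), Chordc1 (-0.45) and Hspe1 (-0.22) were lowest. In fibroblast-like cells 1 of 14 was higher and none lower, with a median of 0.05. That gene was Hspb1, at 159 and 50.4 CPM (1.65), ahead of Hsph1 (0.55) and Hspd1 (0.39), with Ahsa1 (-0.32), Hsf1 (-0.27) and Chordc1 (-0.23) lowest. The part of free fibroblast RNA in the macrophage-like Hspb1 level was not tested. In goblet-like cells, where the members' heat shock sum was lower, Hspb1 (1.18) and Hsph1 (0.95) were higher and Dnajb4 (-0.17) was lowest. Of 14 serum response and MAP kinase pathway genes, 1 was higher and 1 lower in macrophage-like cells, with Mapk3 (1.12) and Elk3 (0.47) highest and Elk4 (-0.81), Elk1 (-0.41) and Creb1 (-0.35) lowest. In fibroblast-like cells 1 was higher, Elk3 (0.85), ahead of Mapk3 (0.56) and Mapk14 (0.08), and Srf (-0.44), Mapk9 (-0.40) and Elk1 (-0.38) were lowest.

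Per cell, the members were spread over many cells, but not evenly. At 500 UMIs per cell, macrophage-like cells held a mean of 5.39 member UMIs in colotomy and 3.18 in sham, and 47.3% and 22.7% of them held 5 or more. Neutrophil-like cells held 4.93 and 5.19, fibroblast-like cells 2.70 and 2.43, and goblet-like cells 1.28 and 1.51. Member UMIs were absent from 7.02% of colotomy and 11.5% of sham macrophage-like cells.

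Cells with a Fos UMI were compared with the other cells of their class and library to see which members were found together. In colotomy fibroblast-like cells, 394 had Fos and 3254 did not, and 31 of the other 37 members had a higher share in Fos cells, 18 with intervals apart. Of the 10848 genes with a UMI in at least 10 of these cells, 47.2% had a higher share in Fos cells and 0.793% had intervals apart above. Intervals part more readily for genes found in many cells, and the genes were not matched to the members on this. The 18 were 5 of 7 AP-1 genes, 3 of 3 heat shock genes, 2 of 4 NF-kB feedback genes and none of the 5 KLF factors and Myc. Fosb was seen in 14.5% of Fos cells and 3.66% of the others, Junb in 35.8% and 15.5%, Egr1 in 26.6% and 9.53%, Hspa1a in 8.38% and 3.04% and Dnajb1 in 5.33% and 1.66%. Klf2 was seen in 12.9% and 13.8%.

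In sham fibroblast-like cells 30 of 37 were higher in Fos cells, where 48.9% of genes were, and 9 had intervals apart, where 0.653% had. In colotomy macrophage-like cells, 317 had Fos and 666 did not. Of the 35 members with a UMI in at least 10 of these cells 33 were higher, where 47.2% of 6291 such genes were. Intervals were apart for 12, where 0.699% of genes had them apart, among them Junb (63.7% and 40.5%), Dusp1 (37.9% and 19.1%), Nfkbia (24.3% and 12.0%) and Egr2 (5.36% and 0.601%). None of the 3 heat shock genes was apart there. In sham macrophage-like cells 34 were higher, where 46.8% of genes were, and 12 apart, where 0.555% were. In sham erythroid-like cells, 89 with Fos, 22 of the 30 members with a UMI in at least 10 cells were higher, where 46.4% of such genes were. Of these members 4 were apart, where 0.505% of genes were. Cells within a class differ in subtype as well as in activation, and the part of that in these shares was not tested.

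**Figure D5:**
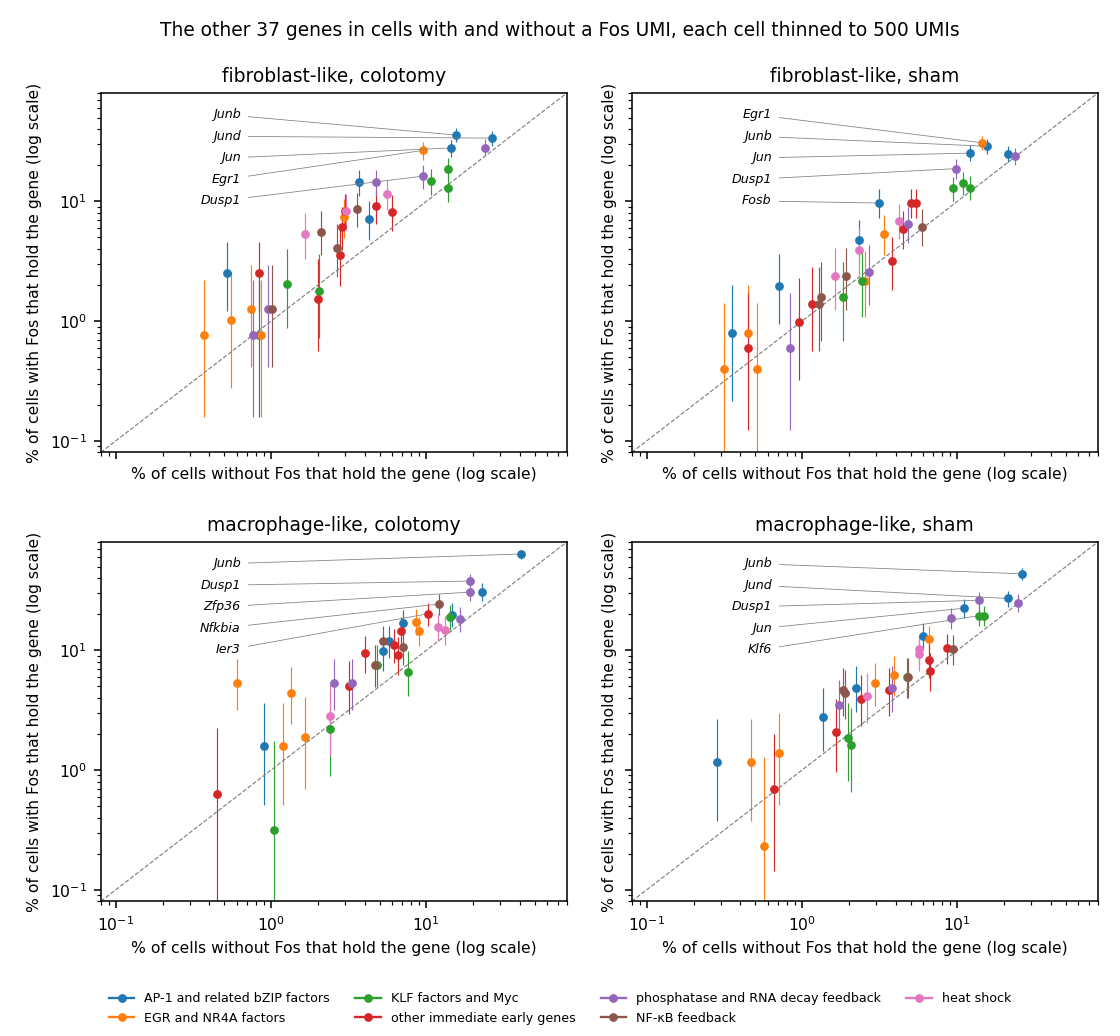
Share of cells with a UMI of each other member among cells with a Fos UMI (vertical axis, percent) against cells without (horizontal axis, percent), both log scales, at 500 UMIs per cell, with a panel per class and library, the diagonal marking equal shares, bars giving 95% binomial intervals of the Fos cells and genes at 0 in either left out. Most points lie above the diagonal, 31 of 37 members in colotomy fibroblast-like cells and 34 of 37 in colotomy macrophage-like cells. With a UMI in at least 10 cells required, the latter count was 33 of 35, and 47.2% of such genes had a higher share in each class.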

How the data were processed

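The deposited matrices hold UMI counts per gene and barcode, made by the authors with Cell Ranger 6.0.0 per the file headers. The submitters' processing notes also name STAR 2.5.1b, Seurat, Space Ranger and mm10. Whether doublets or empty droplets were removed before deposit is not given in the sources used here, nor is the library chemistry. No doublet caller was run.

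Barcodes with both hashtags were kept, and left out as an alternative. Hashtags were called with a mixture model per library (posterior 0.5). Counts were normalised to 10000 per cell, and 2000 variable genes without the members, 30 components, 15 neighbours and Leiden resolution 1 gave clusters (scanpy 1.11.5, igraph 0.11.9), with cell-free RNA left in. A cluster took a class name from at least 3 of its markers, each in 10% of cells and at 2 times the CPM of other cells. The 26 marker lists, 38 members, 7 role groups and 4 pathway lists were chosen with earlier results of these data known.

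UMIs were summed by class and library, with exact Poisson intervals for CPM, Clopper-Pearson intervals for shares, and exact conditional binomial intervals (95%) for ratios, which cover counting error only. A call needed 10 UMIs over both libraries and a 1.5-fold ratio, and a floor of 3 counts stood for 0. The scripts for ratios and shares were tested on simulated data. Shares in cells with a Fos UMI over all genes were added after the data were seen. Named in each compared class were the members with the 5 largest and 5 smallest ratios among those with at least 50 UMIs, the member of highest CPM in the role groups where a group is described, and the 3 largest and smallest of each pathway list in macrophage-like and fibroblast-like cells. A gene that this rule would name is not reported here. Other members, and pathway genes in other classes, were added after their values were seen. Alternatives were other filters, scalings, cluster settings, hashtag and Y-linked subsets, and thresholds. Python 3.11.15, numpy 2.4.6, scipy 1.17.1, pandas 2.3.3, scikit-learn 1.9.0 and matplotlib 3.10.9 were used.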

Additional observations from a re-analysis of the deposited data

Results flagged for a closer look

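The summed EGR and NR4A factors moved in opposite directions in 2 classes of the same libraries, with a log2 ratio of colotomy to sham of 0.96 in macrophage-like cells and -0.87 in goblet-like cells. The difference between the classes was not tested.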

How the results depend on the processing

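No paired analysis was possible because each group is 1 library and the labels give no replicate numbers. Over 201 results and their alternatives, 2183 of 2885 values stayed within the counting interval of the main value, 684 moved beyond it and 18 reversed a called direction. Chosen after seeing the data were cells of 1000 to under 2000 UMIs, single clusters, and leaving out barcodes shared by the libraries. Values from under 20 cells or 10 UMIs are not given. The cause of each change was not tested.

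For the AP-1 sum in fibroblast-like cells (0.37), the values were 0.30 at 1000 to under 2000 UMIs, 0.43 at 1000 or more, 0.48 for hashtag 1, 0.25 for hashtag 2, and 0.63, 0.48 and 0.29 in the Ptn, Inmt and Efhd1 clusters. For the NF-kB feedback sum (0.07) they were 0.32 and 0.24 at those depths, -0.066 at Leiden resolution 2, -0.13 in Y-linked cells, -0.18 and 0.25 for the hashtags, and 0.60, -0.13 and -0.16 in the clusters. For the heat shock sum (0.65) they were 0.84 at 1000 UMIs or more, 0.97 for hashtag 1, and 0.98, 0.99 and 0.14 in the clusters. The count of fibroblast-like members called higher (9) was 3 at a 2-fold threshold and 18 in the Ptn cluster, while the macrophage-like count (22) lay between 15 and 24. The sum over all kept cells (0.25) was 0.019 at 1000 to under 2000 UMIs, 0.025 at 1000 or more, 0.27 in non-mitochondrial CPM, 0.074 in Y-linked cells, 0.15 and 0.33 for the hashtags, 0.29 as a mean over cells, 0.076 under median-of-ratios scaling and 0.32 under 10% mitochondrial.

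Directions reversed mostly in small subsets. In hashtag 1 cells these were the EGR and NR4A sum in plasma cell-like cells (0.031), the heat shock sum in germinal centre B cell-like cells (-0.53), and in macrophage-like cells Egr1 (-0.089), Nfkbia (-0.045), Nr4a1 (-1.42) and Rhob (-2.13). In hashtag 2 cells these were Dusp2 in epithelial-like (0.78), Egr3 in goblet-like (0.10) and Myc in macrophage-like cells (0.021), and the vascular endothelial-like heat shock sum (-0.22). In Y-linked cells these were Dusp2 in neutrophil-like (0.64), Fosb (-0.28) and Myc (0.14) in macrophage-like cells, and the epithelial-like heat shock sum (-0.14). The others were Egr2 in the Mmp12 cluster (-0.18), Fosb (-0.40) and Hspa1a (-0.17) in the Efhd1 cluster, and Hspa1a in neutrophil-like cells of 1000 to under 2000 UMIs (-0.046). Depth limits the shares of rare members, and the 19 colotomy erythroid-like cells give no usable share for that library.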
